A study of Mus musculus with 8 samples.

Results

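The mouse cytochrome P450 genes were followed in perigonadal white adipose tissue (pgWAT) of mice lacking O-GlcNAc transferase (OGT) in adipocytes. Members were the probes of the Illumina MouseRef-8 v2.0 bead array whose annotated symbol is Cyp followed by a digit, a letter and a digit, leaving out Cyp51. The rule found 100 probes of 74 genes, among 25697 probes and 16593 annotated gene symbols on the array. OGT adds a single sugar, O-GlcNAc, to nuclear and cytosolic proteins. RNA of pgWAT from adipocyte-specific OGT knockout (FKO) mice was on 3 arrays, and that of littermate control (Con) mice on 5 arrays. FKO mice carried a floxed Ogt gene and Cre under the Adiponectin promoter, which is active in adipocytes, and Con mice carried the floxed gene and are labelled wildtype. All were male mice of the B6 strain, labelled 15 weeks old, that had eaten a high-fat diet (HFD) for 3 days. Other cells of the fat pad keep Ogt in FKO mice, so pgWAT is a mixture in both groups.

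Ogt, the targeted gene, did not follow the labels. With its brightest probe the intensity was 296, 177 and 260 on FKO 1, FKO 2 and FKO 3 as labelled, against 188, 264, 199, 232 and 267 on Con 1 to Con 5. With each of its 3 probes, the lowest values lay on FKO 2, Con 1 and Con 3, and where these probes lie relative to the deleted exons was not examined. The names of arrays used here are those labels, and a difference between FKO and Con means a difference between the arrays so labelled. Adipocyte markers were present on all arrays, with Adipoq, the gene for adiponectin, at 7496 to 10066 on the FKO arrays and 9337 to 10666 on the Con arrays. Transcripts of the epididymis, the organ that lies against this fat pad, were high on FKO 1 and FKO 3, and to a lesser degree on Con 2. The summed level of 16 epididymal markers was 9926, 1615 and 16879 on FKO 1, FKO 2 and FKO 3, against 1644 to 2575 on the Con arrays.

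P450 enzymes are haem proteins that insert an oxygen atom into their substrates, using electrons from NADPH. Families CYP1 to CYP3 clear drugs and other foreign compounds and also oxidise steroids and arachidonic acid. CYP4 enzymes hydroxylate fatty acids and leukotrienes at their far end, and the higher families make or inactivate steroid hormones, bile acids, vitamin D and retinoic acid. The liver expresses most of them at high level. In adipose tissue the best known is CYP2E1, which oxidises ethanol, acetone and fatty acids.

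Promoters are shown for 3 pairs of related genes described below. Sequences are from RefSeq (GRCm38.p6), 250 bases before to 50 bases after each start, read 5′ to 3′ along the gene, and 55 of the 74 genes matched at least 1 of 62 entries. Cyp17a1 and Cyp4a12a, which had the largest differences between the groups, were among the genes without an entry. Cyp2j11 (chr4:96348631-96348930, minus strand) and Cyp2j13 (chr4:96077491-96077790, minus strand) are separated on chromosome 4 by 1 coding gene, Cyp2j12, and both were high on FKO 1 and FKO 3. Their promoters were 53.0% identical. Cyp2j13 has another entry, from 96077498, and the identity may be for that entry rather than the one printed. The capitals mark AGAACA, the core motif read by the androgen and glucocorticoid receptors, which was searched on both strands.
Cyp2j11: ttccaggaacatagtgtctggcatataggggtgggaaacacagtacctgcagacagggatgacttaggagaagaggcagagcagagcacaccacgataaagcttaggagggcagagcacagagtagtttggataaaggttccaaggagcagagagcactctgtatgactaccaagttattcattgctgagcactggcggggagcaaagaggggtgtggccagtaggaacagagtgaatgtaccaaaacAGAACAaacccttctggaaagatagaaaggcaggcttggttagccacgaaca
Cyp2j13: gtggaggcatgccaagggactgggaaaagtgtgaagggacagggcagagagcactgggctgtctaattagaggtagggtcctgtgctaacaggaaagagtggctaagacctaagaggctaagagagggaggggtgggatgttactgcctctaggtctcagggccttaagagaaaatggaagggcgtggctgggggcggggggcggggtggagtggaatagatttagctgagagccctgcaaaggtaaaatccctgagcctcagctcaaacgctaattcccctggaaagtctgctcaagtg
Cyp2j11 held 1 such match, 2 bases before the start, and Cyp2j13 held none. AGAACA occurred in 15 of 62 P450 promoters (24.2%) and in 19.0% of all 32851 promoters of the same length.

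Cyp2c37 (chr19:39992174-39992473, plus strand) and Cyp2c50 (chr19:40089429-40089728, plus strand) had the same 3 arrays at the bottom. Their promoters were 86.6% identical, over 305 alignment columns, and the capitals mark the bases that differ between them.
Cyp2c37: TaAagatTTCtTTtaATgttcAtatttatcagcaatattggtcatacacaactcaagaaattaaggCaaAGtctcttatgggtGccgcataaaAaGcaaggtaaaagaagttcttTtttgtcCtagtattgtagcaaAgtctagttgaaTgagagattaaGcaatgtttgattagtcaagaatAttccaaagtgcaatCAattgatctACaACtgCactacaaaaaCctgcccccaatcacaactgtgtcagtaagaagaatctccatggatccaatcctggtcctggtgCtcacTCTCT
Cyp2c50: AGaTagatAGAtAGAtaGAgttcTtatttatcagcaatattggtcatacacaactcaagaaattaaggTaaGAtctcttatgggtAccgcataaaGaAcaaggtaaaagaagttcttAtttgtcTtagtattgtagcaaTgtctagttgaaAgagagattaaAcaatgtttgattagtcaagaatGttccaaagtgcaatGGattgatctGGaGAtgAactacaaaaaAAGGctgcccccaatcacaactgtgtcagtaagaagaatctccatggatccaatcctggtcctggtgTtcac
Cyp2d9 (chr15:82452127-82452426, plus strand) and Cyp2d10 (chr15:82407145-82407444, minus strand) are adjacent coding genes, with promoters 83.3% identical over 306 columns, and yet their array orders differed. Capitals again mark the differences.
Cyp2d9: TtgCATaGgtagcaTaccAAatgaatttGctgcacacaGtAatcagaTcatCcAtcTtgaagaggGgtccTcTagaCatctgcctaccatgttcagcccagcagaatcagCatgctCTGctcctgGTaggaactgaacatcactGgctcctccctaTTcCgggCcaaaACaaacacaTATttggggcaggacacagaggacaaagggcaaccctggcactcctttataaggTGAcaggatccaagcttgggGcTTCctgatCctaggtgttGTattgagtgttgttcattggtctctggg
Cyp2d10: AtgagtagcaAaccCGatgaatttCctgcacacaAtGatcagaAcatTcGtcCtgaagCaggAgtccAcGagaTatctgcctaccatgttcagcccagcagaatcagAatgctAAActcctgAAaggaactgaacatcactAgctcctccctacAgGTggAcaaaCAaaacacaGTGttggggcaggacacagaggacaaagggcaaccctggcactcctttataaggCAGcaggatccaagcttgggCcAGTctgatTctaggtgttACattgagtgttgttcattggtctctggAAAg
The other motifs searched, on both strands, were the TATA box (TATAAA), the nuclear receptor motif AGGTCA, the E-box (CACGTG), the AHR core (GCGTG) and the CAAT box (CCAAT), and none of the 6 motifs contains another. The TATA box stood furthest from its share elsewhere. Its letters were in 25 of the 62 P450 promoters (40.3%), at any position and on either strand, against 13.6% of all promoters. Cyp2d9 and Cyp2d10 were among them, with the match on the strand opposite the gene. Positions of the matches ran from -234 (Cyp3a11) to 40 (Cyp2c40) relative to the start. AGGTCA, the core motif of many nuclear receptors, was in 25.8% of the P450 promoters and 16.3% of all. Related P450 genes share much of their promoter sequence, so the 62 entries are not independent of each other, and a match is a string of letters and not a bound site.

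Few P450 genes were above background on every array: 15 of the 74 genes passed the limit on all 8, and 32 passed it on none. Array values pile up at a background level of about 98.5, and a probe was taken as above background where it passed 106. Of the 100 probes, 51 (42 genes) passed 106 on at least 1 array. The other 49 probes lay between 89.7 and 105.9 throughout, and for 32 genes no probe passed. These 32 genes were Cyp1a1, Cyp2b13, Cyp2b19, Cyp2b23, Cyp2c29, Cyp2c38, Cyp2c39, Cyp2c40, Cyp2c55, Cyp2c65, Cyp2d12, Cyp2d13, Cyp2d34, Cyp2g1, Cyp2j5, Cyp2j6, Cyp2r1, Cyp2u1, Cyp3a16, Cyp3a25, Cyp3a41a, Cyp3a44, Cyp4a12b, Cyp4a31, Cyp4x1, Cyp11a1, Cyp11b1, Cyp21a1, Cyp26a1, Cyp26b1, Cyp27b1 and Cyp46a1. They include Cyp11a1, which starts steroid synthesis from cholesterol, and Cyp26a1 and Cyp26b1, which degrade retinoic acid. On all 8 arrays, 19 probes of the 15 genes were above 106. A further 6 genes (Cyp24a1, Cyp2c67, Cyp2d26, Cyp2d40, Cyp3a11 and Cyp4a14) passed on 1 or 2 arrays only and were not tested.

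Between the labelled groups, no P450 probe passed the test. Probes above 106 on at least 3 arrays were fitted with limma, which left 42 P450 probes of 36 genes among 13925 probes in all. With Benjamini-Hochberg adjustment, 0 of the 42 P450 probes were called at 0.05, and 0 of all probes (0.0%), the smallest adjusted p being 1.0. At an unadjusted p under 0.05, limma gave 3 higher and 1 lower P450 probe, against 2.31% higher and 1.97% lower over all probes (4.29% in either direction). The methods' t-test, run here on the values and probes of the limma fit, gave 0 P450 probes and 1 of all probes (0.00718%). The study applied its cutoffs to quantile-normalized data and called genes in both directions. The count here follows a further background correction, renewed normalization and a level filter, so the counts are not alike. The study's cutoffs were not rerun on the deposited values of all probes, and the reason for the gap was not tested. In none of the 42 did the FKO and Con values separate without overlap, as they did for 2.63% of all probes (1.18% higher and 1.45% lower in FKO). Taking the brightest probe of each gene, the log2 fold change was positive for 12 and negative for 24 of the 36 genes, with a median of -0.04, beside a median of -0.02 and 43.4% positive over all tested genes.

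Grouped by function, each set of families held genes with positive and with negative differences. Of families 1 to 3, 19 of 45 genes were tested, 4 positive and 15 negative, with a median log2 fold change of -0.07. Of family 4, 9 of 13 genes were tested, 4 positive and 5 negative (median -0.02). Of the families for steroids, sterols, bile acids, vitamins and retinoids, 7 of 15 were tested, 4 positive and 3 negative (median 0.04). Cyp20a1, an orphan P450 with no settled substrate, stood alone at -0.13 ± 0.14 (SE).

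**Figure D1:**
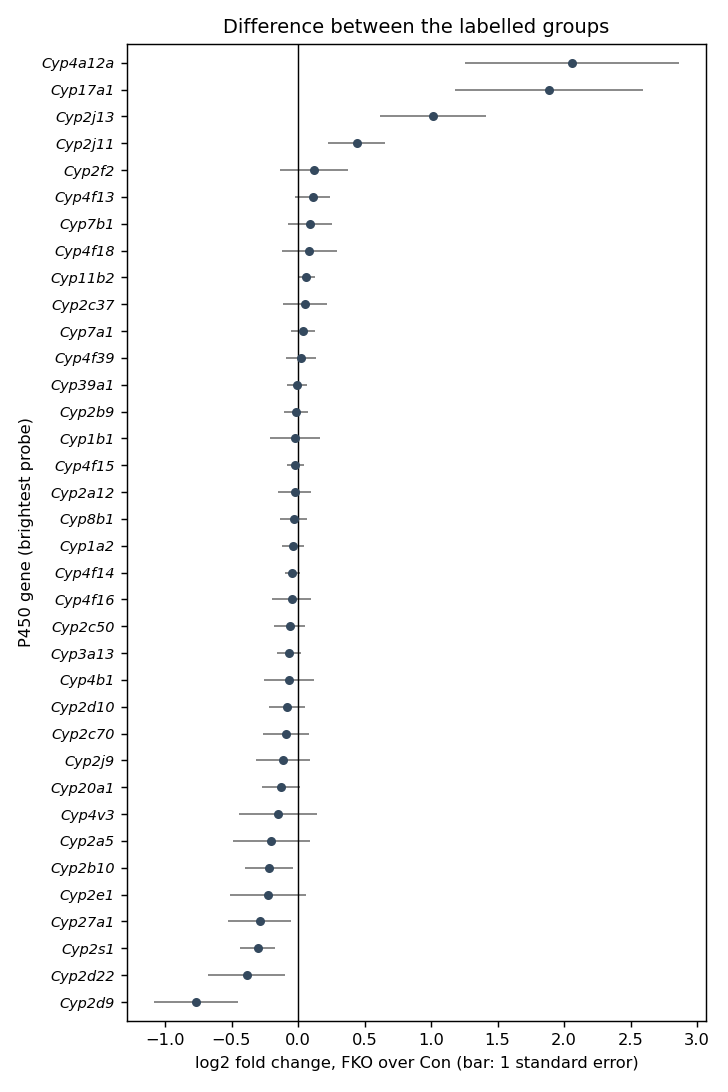
The log2 fold change (FKO over Con, x axis) of each of the 36 tested P450 genes, down the y axis, fitted with limma over 3 FKO and 5 Con arrays. Bars are 1 SE. Cyp4a12a (2.06), Cyp17a1 (1.89) and Cyp2j13 (1.02) lie far to the right with wide bars, Cyp2d9 (-0.77) lies lowest, and no gene passed the adjusted threshold.

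The genes with the largest positive differences were high on FKO 1 and FKO 3 and at background on FKO 2. Cyp17a1, the 17α-hydroxylase and 17,20-lyase that makes androgen precursors, was at 441, 95.8 and 736 on FKO 1, FKO 2 and FKO 3, against 101, 135, 100, 104 and 104 on Con 1 to Con 5. Cyp4a12a, which in male mice converts arachidonic acid to 20-HETE, was at 470, 94.9 and 1105 on the FKO arrays, against 99.1, 145, 105, 105 and 107 on the Con arrays. For both genes FKO 2 was the lowest of all 8 arrays, Con 2 was the highest Con array, and the groups overlapped. The log2 fold change was 1.89 ± 0.70 (SE) for Cyp17a1 and 2.06 ± 0.81 for Cyp4a12a, with a limma adjusted p of 1.0 and an exact two-sided permutation p of 0.107 for each, where 56 splits of the arrays allow no p below 0.018.

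The neighbours Cyp2j13 and Cyp2j11, of a subfamily that turns arachidonic acid into epoxides, followed the same order at lower levels. Cyp2j13 was at 200, 97.5 and 294 on the FKO arrays, against 105, 108, 109, 103 and 103 on the Con arrays (log2 fold change 1.02 ± 0.40). Cyp2j11 was at 132, 95.2 and 154 on the FKO arrays, against 97.4, 105, 95.9, 111 and 99.8 on the Con arrays (0.44 ± 0.21). FKO 2 was lowest in both. A second Cyp2j11 probe, too dim to be tested, was at 110, 98.9 and 123 on the FKO arrays, against 94.7 to 100.4 on the Con arrays. Other members of the subfamily did not share the order: Cyp2j5 and Cyp2j6 never passed 106, and Cyp2j9 was at 242, 187 and 164 on the FKO arrays, against 179, 203, 194, 276 and 199 on the Con arrays (-0.12 ± 0.20). Nor did Cyp4a12b, the close relative of Cyp4a12a, whose probe lay between 95.8 and 102.6.

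FKO 1 and FKO 3 were the 2 highest arrays for these 4 of 42 tested P450 probes (9.52%), a share near that over all tested probes (6.72%), so the order is not particular to P450 genes. It was also the order of 5 of the 7 tested epididymal markers. Such transcripts singled out these 2 arrays, so the count is a description and not a test. Cyp17a1, Cyp2j11 and the markers Rnase9 and Spint4 passed 106 on 3 arrays only, FKO 1 and FKO 3 among them. They were thus tested through these arrays. Adam7, a membrane protein of the epididymal epithelium, was at 3939, 117 and 7925 on FKO 1, FKO 2 and FKO 3, against 142, 531, 196, 221 and 132 on the Con arrays. Con 2 was the highest Con array for Adam7 as for Cyp17a1 and Cyp4a12a. Of the 16 epididymal markers on the array, 9 passed 106, and Adam28, Gpx5, Lcn5, Lcn9, Lcn10, Ovch2 and Teddm1a did not. Steroidogenic cell markers were at background: of 7 on the array only Hsd3b6 passed 106 anywhere, Star, Insl3, Hsd3b1, Hsd17b3, Nr5a1 and Cyp11a1 did not, and their summed level was 680 to 696 on the FKO arrays and 674 to 695 on the Con arrays. In a mixed tissue, more cells of a type and more RNA per cell cannot be told apart. The difference depended on which arrays were kept, as it must for genes singled out by this order. Without FKO 2, Cyp17a1, Cyp4a12a, Cyp2j13 and Cyp2j11 were called, at 2.97, 3.27, 1.62 and 0.74 on the log2 scale, as were 194 probes in all (192 higher, 2 lower). Without FKO 1, FKO 3 and Con 2, which leaves FKO 2 as the lone FKO array, their values were -0.16, -0.22, -0.18 and -0.14. The part of epididymal tissue in these differences was not tested.

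**Figure D2:**
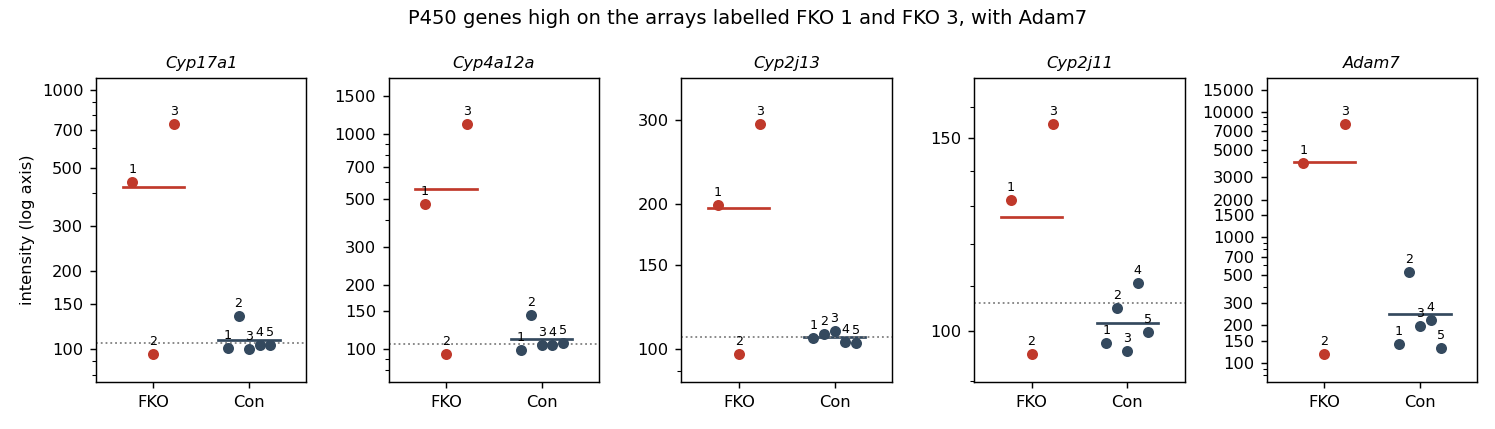
Intensity on each array (log axis) of Cyp17a1, Cyp4a12a, Cyp2j13 and Cyp2j11, with the epididymal marker Adam7 at the right. Points are arrays, numbered by replicate label, short lines are group means over 3 FKO and 5 Con arrays, and the dotted line is the background limit of 106. FKO 1 and FKO 3 stand above all other arrays in each panel, while FKO 2 is the lowest point.

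The lower end of the list was led by Cyp2d9, a testosterone 16α-hydroxylase that is typical of male mouse liver. It was at 153, 111 and 134 on FKO 1, FKO 2 and FKO 3, against 178, 265, 190, 259 and 126 on Con 1 to Con 5. Con 5 lay within the FKO range and the other 4 Con arrays lay above it. The log2 fold change was -0.77 ± 0.32 (SE), with a limma adjusted p of 1.0 and an exact permutation p of 0.107, and it stayed negative without any single array (-0.98 to -0.59). Its neighbour Cyp2d10 did not share this order, with 118, 99.8 and 109 on the FKO arrays, against 104, 121, 102, 125 and 112 on the Con arrays. Cyp2s1, an enzyme of epithelia that oxidises retinoids and eicosanoids, was at 152, 137 and 132 on the FKO arrays, against 158, 141, 168, 196 and 161 on the Con arrays (-0.30 ± 0.13, exact permutation p 0.107). For both genes the FKO mean was the lower, but the groups overlapped.

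Cyp2e1 was the brightest P450 probe by a wide margin, near the top of the array's scale (highest value of any probe 18023). It was at 13932, 10744 and 5511 on the FKO arrays, against 10666, 9243, 12542, 13837 and 9190 on the Con arrays. FKO 1 was the highest and FKO 3 the lowest of all 8 arrays, and the difference was -0.22 ± 0.29 (limma adjusted p 1.0). It turned to 0.16 without FKO 3. FKO 3 was the lowest array for 14 of 42 tested P450 probes (33.3%), against 21.0% of all tested probes. It was also the lowest array for 3 of 9 adipocyte markers, 3 of 4 macrophage markers, 3 of 5 endothelial markers and 4 of 6 fibroblast and progenitor markers. The count was 2 of 5 for mesothelial markers, and 0 for the tested epididymal (7), hepatocyte (4) and kidney (1) markers. The summed adipocyte markers were at 34265, 34838 and 32397 on FKO 1, FKO 2 and FKO 3, against 34581 to 39071 on the Con arrays. The part of these cell types in the P450 values was not tested.

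Several other P450 genes above background on every array dipped on FKO 3 in the same way. Cyp2d22, often set beside human CYP2D6, was at 433, 488 and 253 on the FKO arrays, against 482, 415, 630, 586 and 340 on the Con arrays (-0.39 ± 0.29). Cyp4v3, whose human counterpart hydroxylates fatty acids, was at 576, 708 and 345 on the FKO arrays, against 677, 433, 584, 773 and 460 on the Con arrays (-0.15 ± 0.29). Cyp27a1, the mitochondrial sterol 27-hydroxylase of bile acid synthesis, was at 406, 320 and 255 on the FKO arrays, against 319, 338, 384, 569 and 350 on the Con arrays (-0.29 ± 0.24), and its 3 probes gave -0.29 to -0.19. In each of these genes FKO 3 was the lowest array while FKO 1 and FKO 2 lay inside the Con range. Without FKO 3 the difference was -0.06 for Cyp2d22 and -0.10 for Cyp27a1, and it turned to 0.17 for Cyp4v3. Cyp27a1 was at -0.13 without Con 4, its highest array.

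**Figure D3:**
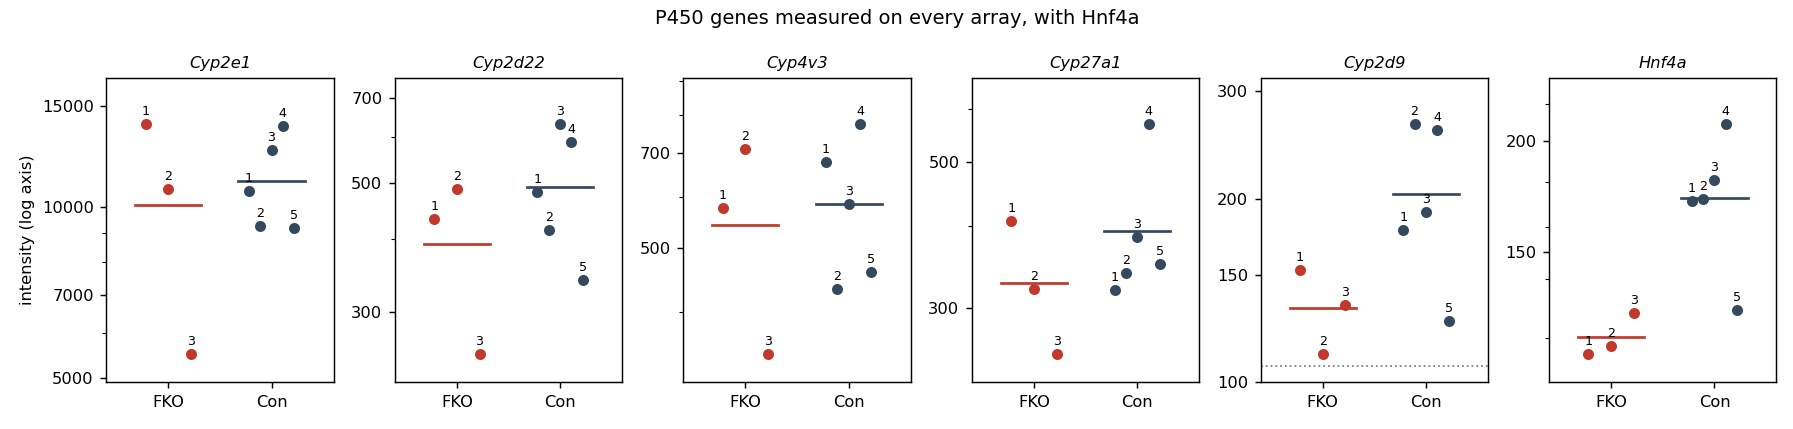
Intensity on each array (log axis) of 5 P450 genes above background on every array, with the regulator Hnf4a at the right. Points are arrays numbered by replicate label, and short lines are group means over 3 FKO and 5 Con arrays. FKO 3 is the lowest array for Cyp2e1, Cyp2d22, Cyp4v3 and Cyp27a1, whereas for Cyp2d9 and Hnf4a the FKO arrays and Con 5 sit together below the other Con arrays.

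The remaining genes in this range moved little between the groups. Cyp4f13 and Cyp4f18 belong to the subfamily that inactivates leukotriene B4. Cyp4f13 was at 640, 488 and 581 on the FKO arrays, against 486, 533, 475, 645 and 513 on the Con arrays (0.11 ± 0.13). Cyp4f18 was at 241, 366 and 198 on the FKO arrays, against 243, 264, 247, 261 and 218 on the Con arrays (0.08 ± 0.21), with FKO 2 the highest and FKO 3 the lowest of all arrays. Cyp1b1, which hydroxylates oestradiol, was at 259, 189 and 182 on the FKO arrays, against 189, 201, 226, 261 and 180 on the Con arrays (-0.02 ± 0.19). Cyp4b1, which acts on fatty acids and foreign compounds, was at 190, 194 and 131 on the FKO arrays, against 175, 170, 206, 157 and 169 on the Con arrays (-0.07 ± 0.19). In all 4 the groups overlapped, and the SE exceeded the difference, so these arrays neither show a change nor establish equal levels.

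Much of the variation among P450 genes did not follow the labelled groups. The median difference between a gene's highest and lowest array was 0.67 on the log2 scale over the 36 tested P450 genes, against 0.44 over all tested genes. Con 1, Con 3 and FKO 2 were the 3 lowest arrays for 17 of the 42 tested P450 probes (40.5%), against 11.1% of all tested probes. The 17 probes belong to 14 genes: Cyp2a5, Cyp2c37, Cyp2c50, Cyp2c70, Cyp2d10, Cyp2j11, Cyp3a13, Cyp4a12a, Cyp4f13, Cyp4f15, Cyp4f16, Cyp7a1, Cyp8b1 and Cyp17a1. These are the same 3 arrays that were lowest for Ogt, and the order was known from earlier results of these data. Testing needed values above 106 on at least 3 arrays, and 23 of the 42 probes passed on 3 to 7 arrays only. Such a probe can pass through its other arrays, as did that of Cyp2a5, under 106 on just Con 1, Con 3 and FKO 2. For some genes the ranks were decided under 106. Cyp17a1 was at 101, 100 and 95.8 on Con 1, Con 3 and FKO 2, and at 104 on Con 4 and Con 5. Cyp2j11 was at 97.4, 95.9 and 95.2 on those 3 arrays, and at 99.8 on Con 5. The share of 40.5% is therefore a description and not a test of the order. The reverse order, with these 3 arrays highest, was seen in 3 P450 probes (7.14%), those of Cyp2b9, Cyp2b10 and Cyp4f39, against 14.2% of all tested probes.

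**Figure D4:**
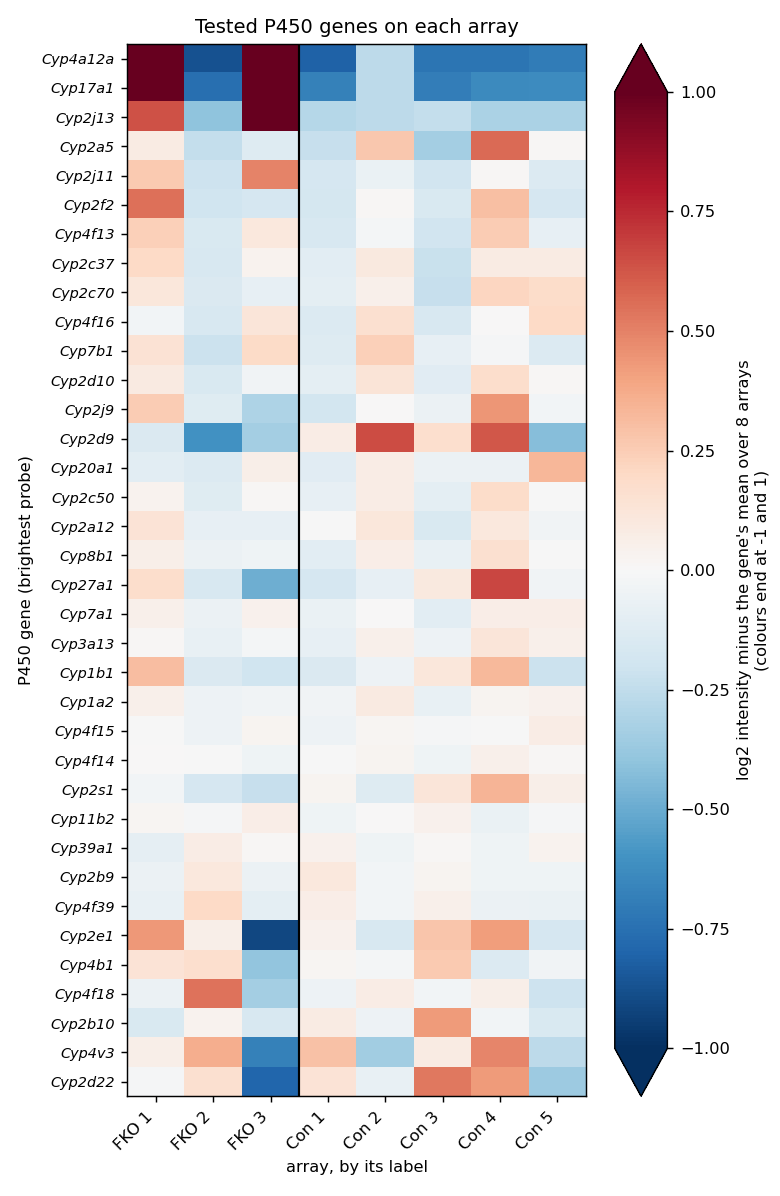
Deviation of each of the 36 tested P450 genes (rows, brightest probe) from its own mean over 8 arrays, as log2 of the deposited intensity, with the 3 FKO arrays left of the line and the 5 Con arrays right of it. Colours end at -1 and 1, and rows run from the genes lowest on Con 1, Con 3 and FKO 2 at the top to those highest there at the bottom. The upper rows are blue in those 3 columns, and several of the lowest rows, Cyp2e1 and Cyp2d22 among them, are bluest on FKO 3.

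Most of the 14 genes are liver enzymes at low level here. Of the 6 described and plotted, Cyp2a5 falls under the rule for naming genes, and Cyp2c37, Cyp2c50, Cyp2c70, Cyp2d10 and Cyp8b1 were chosen after their values were seen. Cyp2a5, the coumarin 7-hydroxylase, was at 131, 105 and 114 on FKO 1, FKO 2 and FKO 3, against 106, 149, 97.8, 183 and 125 on Con 1 to Con 5 (-0.20 ± 0.29). Cyp2c70, which in mice makes muricholic acids, was at 130, 108 and 113 on the FKO arrays, against 112, 124, 102, 139 and 136 on the Con arrays. Cyp8b1, the sterol 12α-hydroxylase of cholic acid synthesis, was at 116, 107 and 109 on the FKO arrays, against 104, 117, 106, 125 and 111 on the Con arrays. All 3 were at or near the background limit on FKO 2, Con 1 and Con 3. Higher values on the other arrays follow from the way the 14 genes were picked, and some gaps were small. Cyp2c70 was at 112 on Con 1 and 113 on FKO 3, and Cyp8b1 was at 107 on FKO 2 and 109 on FKO 3.

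The related Cyp2c37 and Cyp2c50 gave the same picture. Cyp2c37 was at 123, 96.0 and 110 on the FKO arrays, against 99.7, 115, 91.9, 114 and 114 on the Con arrays, and its second tested probe had the same 3 arrays at the bottom. Cyp2c50 was at 106, 95.1 and 105 on the FKO arrays, against 97.9, 109, 96.8, 117 and 103 on the Con arrays. Probe sequences were not used, so signal of these close relatives on each other's probes cannot be told apart. The liver-type transcripts Ttr, Apoa1, Ahsg and Serpina1a, all 4 hepatocyte markers that passed 106, also had Con 1, Con 3 and FKO 2 as their 3 lowest arrays. Ttr, which carries thyroid hormone and retinol-binding protein, was at 532, 122 and 247 on the FKO arrays, against 126, 540, 107, 525 and 260 on the Con arrays. The summed level of 7 hepatocyte markers was 746 to 1435 on the FKO arrays and 706 to 1465 on the Con arrays, while Alb, Fgb and Tat never passed 106. Con 1, Con 3 and FKO 2 were also the 3 lowest arrays for 3 of 9 adipocyte markers (Cidec, Lipe and Plin1). The same held for 2 of the 7 tested epididymal markers (Rnase12 and Wfdc10). Endothelial markers ran the other way, with 4 of 5 highest on these 3 arrays, as did 1 of 6 fibroblast and progenitor markers. The part of these transcripts in the P450 order was not tested.

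**Figure D5:**
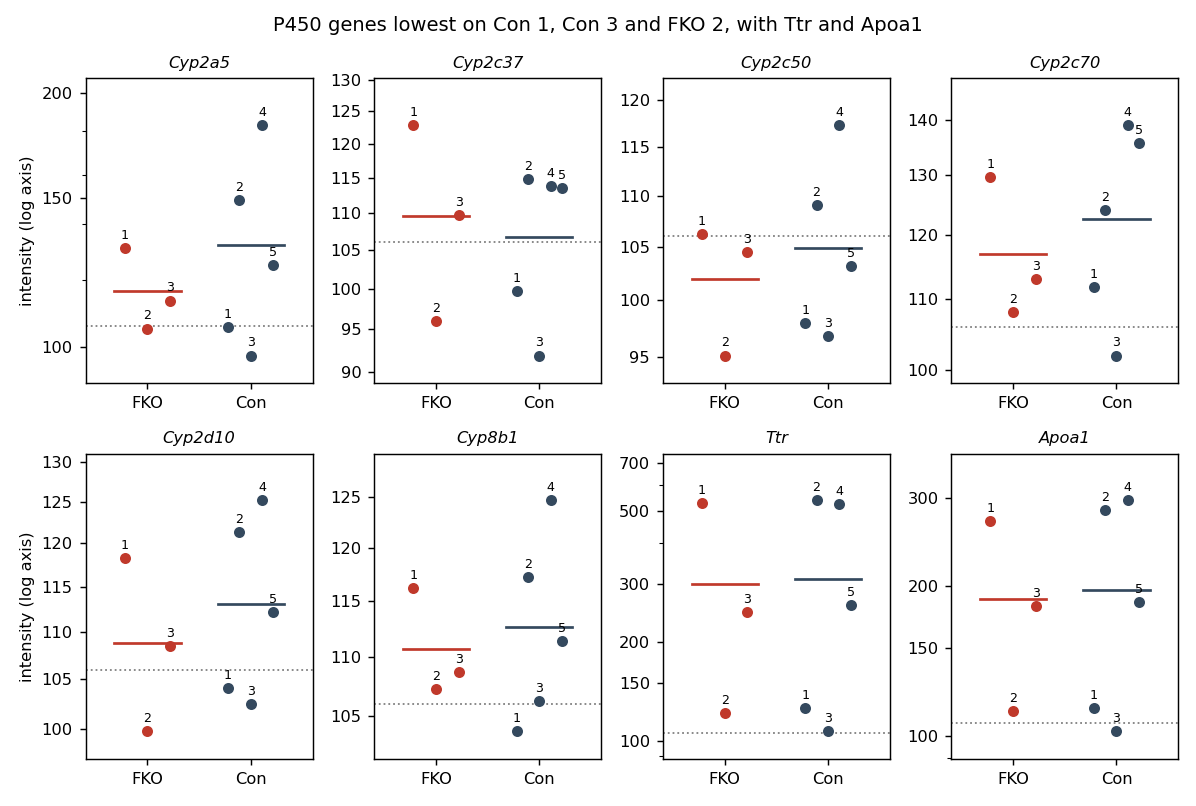
Intensity on each array (log axis) of 6 P450 genes whose 3 lowest arrays were Con 1, Con 3 and FKO 2, with the liver-type transcripts Ttr and Apoa1. Points are arrays numbered by replicate label, short lines are group means over 3 FKO and 5 Con arrays, and the dotted line is the background limit of 106. The arrays numbered 2 under FKO and 1 and 3 under Con sit at the bottom of every panel, and the FKO and Con points overlap in each.

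Cyp7b1, the oxysterol 7α-hydroxylase, and Cyp2f2, known for activating naphthalene in mouse lung, were also above 106 on every array and were chosen after their values were seen. Cyp7b1 was at 151, 118 and 157 on the FKO arrays, against 125, 162, 130, 136 and 125 on the Con arrays (0.09 ± 0.16). Cyp2f2 was at 206, 122 and 125 on the FKO arrays, against 125, 142, 127, 173 and 125 on the Con arrays (0.12 ± 0.25). Both overlapped between the groups. Of the 42 tested P450 probes, 28 stayed under 212 (2 times the limit) on every array, where bead array signal changes little with the amount of RNA.

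Genes that supply P450 enzymes with electrons, regulate them or share their substrates were examined from a list of 98 genes. Of these, 53 genes were tested with 71 probes, and 0 of the 71 probes were called (0.0% of all probes). At an unadjusted limma p under 0.05, 2 of the 71 were higher (2.31% of all probes) and 4 lower (1.97% of all probes). Their brightest probes had a positive log2 fold change in 18 genes and a negative one in 35, with a median of -0.04. By list, the median was -0.10 for electron donors and haem partners (7 genes tested), -0.05 for regulators (13), 0.01 for steroid handling (13), -0.02 for retinoid and vitamin handling (7) and -0.05 for eicosanoids and epoxides (13). Por, the reductase that feeds microsomal P450 enzymes, was not among the listed genes found on the array by symbol, so it was not analysed here. Ahr, the receptor that induces Cyp1a1 and Cyp1b1, lay between 96.1 and 101.6 and was not tested.

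Hnf4a, a nuclear receptor that drives many liver P450 genes, had the smallest p among these partners. It was at 115, 118 and 128 on FKO 1, FKO 2 and FKO 3, against 171, 172, 181, 209 and 129 on Con 1 to Con 5. Every FKO array lay below every Con array, as for 1.45% of all tested probes, although FKO 3 and Con 5 differed by less than 1 unit. The log2 fold change was -0.70 ± 0.18 (SE), with a limma adjusted p of 1.0 and an exact permutation p of 0.036. Cyp2d9 had a like order, with 4 Con arrays above all FKO arrays and Con 5 among them.

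Nqo1 and Ch25h rather followed FKO 1 and FKO 3. Nqo1, a quinone reductase induced by oxidants and Ahr ligands, was at 183, 130 and 209 on the FKO arrays, against 128, 129, 129, 134 and 116 on the Con arrays (0.58 ± 0.19, exact permutation p 0.036). Ch25h, which makes 25-hydroxycholesterol, was at 334, 112 and 482 on the FKO arrays, against 116, 119, 112, 108 and 115 on the Con arrays (1.52 ± 0.50, exact permutation p 0.071). In both, FKO 2 lay within the Con range, and FKO 1 and FKO 3, the arrays with epididymal transcripts, were the highest of all. Crabp1, which binds retinoic acid, was at 106, 96.7 and 94.9 on the FKO arrays, against 113, 114, 118, 122 and 102 on the Con arrays (-0.32 ± 0.10). Alox5, the 5-lipoxygenase of leukotriene synthesis, was at 113, 119 and 109 on the FKO arrays, against 122, 119, 123, 122 and 127 on the Con arrays (-0.17 ± 0.07). Their limma adjusted p was 1.0, the values lay within a factor of 1.3 of each other, and the groups overlapped by 1 array.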

How the data were processed

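Total RNA of pgWAT was labelled with biotin and hybridised to 1-colour Illumina MouseRef-8 v2.0 arrays. The deposited table holds normalized signal intensity on a linear scale, which the authors quantile-normalized, and 98.5 is the mode of its values. A second table with 16 columns could not be assigned to samples and was not used. Genes were named through the platform annotation (23978 of 25697 probes with 1 symbol, 0 with several, 1719 with none), and all 100 P450 probes matched RefSeq by Entrez identifier. Groups came from the labels. The study's figure legends give the same group sizes as the labels, counted as mice, and its methods give them the other way round and a younger age. No source says which mouse each array holds. The number of arrays limits the precision.

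Deposited intensities were background-corrected (normexp, offset 50), normalized by quantiles, log2-transformed and fitted with limma 3.58.1 (lmFit and eBayes, two-sided) in R 4.3.3, with Benjamini-Hochberg adjustment over all 13925 probes above 106 on at least 3 arrays. The limit of 106 mirrors the lowest 1 percent of values below the mode. The script was tested on simulated data. Single genes had an exact permutation test over 56 splits of the arrays. The methods' t-test used equal variances, an unadjusted p of 0.01 and a fold of 1.5, on the background-corrected values of the same 13925 probes. Intensities printed per array are as deposited, and fold changes are from the fit.

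The genes named were the 10 with the highest median, the 10 with the largest range over arrays and the 6 with the smallest limma p, 1 probe a gene (the highest mean), with Cyp17a1, Cyp4a12a and Cyp2e1, giving 16 genes. Of the partner lists they were the 5 with the smallest p, Por and Ahr. Members, lists and array orders were chosen with earlier results of these data known. Replicate numbers did not pair the samples (correlation of same-numbered deviations -0.70 to -0.41). Marker lists for 9 cell types were read as summed intensity. Macrophage markers summed to 3092 to 4292 on the FKO arrays and 3435 to 4857 on the Con arrays, endothelial to 1580 to 3260 and 1915 to 2962, fibroblast to 9303 to 12541 and 10478 to 12985, mesothelial to 1012 to 1535 and 1141 to 1829, kidney to 593 to 598 and 592 to 619, and adipocyte to 32397 to 34838 and 34581 to 39071. Motifs were searched with Python 3.11.15 and pairs aligned with Biopython 1.88.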

Additional observations from a re-analysis of the deposited data

Results flagged for a closer look

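In 4 of the 16 named P450 genes, 1 Con array stood apart from the other 4 by more than 0.71 of the range of the group. Chance gives such a gap in about 1 of 20 groups that were not chosen by their values. The 16 genes were named partly for a large range over these same arrays, so that rate does not apply to them. Cyp17a1 was at 134.7 on Con 2, against 100 to 104 on the other Con arrays. Cyp4a12a was at 145.1 on the same array, against 99.1 to 107 on the others. Cyp27a1 was at 569.4 on Con 4, against 319 to 384, and Cyp2j9 was at 275.5 on Con 4, against 179 to 203. Con 2 was also the Con array with the most epididymal signal, with Adam7 at 531 there and at 132 to 221 on the other Con arrays, and the part of that signal was not tested.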

How the results depend on the processing

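The count of 0 called P450 probes held under every alternative except 1. Without 1 array at a time, counts ran from 0 to 4 for P450 probes, from 0 to 3 for the partners and from 0 to 194 for all probes, the highest in each case without FKO 2. The partners called there were Ch25h, Nqo1 and Ptgds. Without Con 5, 15 probes were called, all lower, and the methods' t-test gave 1. The median log2 fold change of the P450 genes was -0.15 with a limit of 212, -0.13 without FKO 1, FKO 3 and Con 2, 0.03 with array weights, and -0.09 to -0.0019 without single arrays. With the replicate number as a block, 0 P450 probes were called, the median was 0.01, and Cyp1b1 (0.018), Cyp2a5 (0.027) and Cyp2j9 (0.025) changed sign. With array weights the same genes did, at 0.16, 0.036 and 0.10 in that order. Without FKO 1, FKO 3 and Con 2, Cyp17a1 (-0.16), Cyp4a12a (-0.22), Cyp2j13 (-0.18), Cyp2j11 (-0.14), Cyp4b1 (0.18), Cyp4f13 (-0.11) and Cyp4v3 (0.23) changed sign, with 1 FKO array left, assumed to vary like the Con arrays. Without single arrays the ranges crossed 0 for Cyp1b1 (-0.22 to 0.10), Cyp2e1 (-0.51 to 0.16), Cyp2j9 (-0.31 to 0.044), Cyp4b1 (-0.20 to 0.18), Cyp4f18 (-0.21 to 0.32) and Cyp4v3 (-0.39 to 0.17). Cyp2d9 (-1.08 to -0.58), Cyp2s1 (-0.44 to -0.20), Cyp2d22 (-0.60 to -0.02) and Cyp27a1 (-0.48 to -0.08) were negative in every alternative, the last 2 close to 0 in some. The causes were not tested. Of 42 tested P450 probes, 28 never reached 212, so signal over background limits what could be detected.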

Other observations

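Alox12 and Ptgds, partners outside the rule for naming genes, were chosen after their values were seen. Alox12, a lipoxygenase of arachidonic acid, was at 183, 154 and 197 on the FKO arrays, against 255, 308, 348, 427 and 161 on the Con arrays (log2 fold change -0.82 ± 0.34, exact permutation p 0.107). Con 5 lay among the FKO values and the other Con arrays lay above them, the order seen for Cyp2d9. Ptgds, the prostaglandin D2 synthase, was at 566, 109 and 1138 on the FKO arrays, against 145, 213, 140, 150 and 107 on the Con arrays (1.69 ± 0.78, exact permutation p 0.125). FKO 1 and FKO 3 were its highest arrays and Con 2 its highest Con array, as for Cyp17a1.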
